A study of Mus musculus with 4 samples.

Results

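The splicing factors and heterogeneous nuclear ribonucleoproteins (hnRNPs) described here were the protein-coding genes with symbols that begin with Srsf, Snrp, Sf3a, Sf3b, Hnrnp or U2af. The rule gave 55 members among 43346 gene entries, and used no measured value. They fell into 5 families, with 20 Hnrnp, 12 Snrp, 11 Srsf, 9 Sf3 and 3 U2af genes. Another 4 entries that matched the symbols are processed pseudogenes and were left out. The members were compared between monocytes (MON) and neutrophils (NEU) of mouse peripheral blood, with 2 total RNA libraries of each. All the mice were adult C57BL6 animals, described as male in the study's methods, and no genotype, allele or treatment was named for either group. MON were Gr-1+Mac-1+ cells sorted from the Ficoll mononuclear fraction per the labels, whereas the study's own sample list gives Ly6g-, CD11b+. NEU were taken from the Ficoll pellet once red cells had been lysed, and no sort was given for them. The study describes replicates as separate groups of mice or as aliquots of one group, and the labels do not say which applies here, so p-values measure only the spread between these libraries, which may be technical.

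Introns are removed by the spliceosome, which is built from small nuclear ribonucleoproteins (snRNPs), each with a small nuclear RNA held in a ring of Sm proteins. The U1 snRNP recognises the start of an intron, U2AF binds near its end, and the SF3A and SF3B complexes hold the U2 snRNP at the branch point. SR proteins bind RNA through recognition motifs and often favour the inclusion of exons, while hnRNPs are a mixed set of RNA-binding proteins, many of which oppose it, and both also act in RNA export, stability and translation. In human myeloid disease the genes for SF3B1, SRSF2 and U2AF1 are recurrently mutated.

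The libraries held 26076261 and 25538433 expected counts on genes in MON, against 21634828 and 20549572 in NEU. Replicates varied more in MON, with a biological coefficient of variation of 46.2%, than in NEU, with 14.7%. Cell type markers followed the labels: 15 of 16 monocyte markers were called higher in MON, where they summed to 9074 to 9179 CPM (TMM-scaled counts per 1000000 counts of the library) against 1234 to 1271 CPM in NEU, and 15 of 16 neutrophil markers were called higher in NEU, summing to 351.2 to 377.4 CPM in MON against 7931 to 8222 CPM in NEU, with Ly6g, Camp and Stfa2l1 at 0 in both MON libraries. Other cell types also differed. All 14 markers of natural killer cells were called higher in MON and summed to 3160 to 3241 CPM there, against 46.2 to 47.9 CPM in NEU, and all 15 B cell markers measured were called higher in NEU, with sums of 918.6 to 1084 CPM in MON against 6603 to 6764 CPM in NEU; no marker of either list was at 0 in a library. T cell markers summed to 192.5 to 242.3 CPM in MON against 237.1 to 254.9 CPM in NEU, but went both ways. Of the 15 tested, 4 were called higher in MON and 8 in NEU, with a median log2 fold change of MON over NEU of -2.05. Red cell markers summed to 6219 to 6663 CPM in MON against 8067 to 8740 CPM in NEU, with Epor and Klf1 at 0 in MON. Basophil and eosinophil markers summed to 258.1 to 286.4 CPM in MON against 55.6 to 57.5 CPM in NEU, with Epx at 0 in MON and Mcpt8 at 0 in NEU. Xist, the RNA of the inactive X chromosome, had 0 and 0 counts in MON against 5088 and 4878 in NEU, while the Y-linked Ddx3y had counts in all 4 libraries (9814 and 9847 in MON, 3479 and 2782 in NEU). The part of these cells and animals in the differences below was not tested. In bulk RNA, fewer cells of a type and less RNA per cell cannot be told apart.

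Most members that differed were higher in MON, and the snRNP proteins stood at the top of the list. Of the 53 members that passed the filter on low counts, 25 were called higher in MON (47.2%, against 20.8% of the 14309 genes tested) and 6 were called higher in NEU (11.3%, against 21.8% of all genes tested). Of the 11903 protein-coding genes tested, 23.4% were called higher in MON and 22.4% in NEU. The remaining 22 members were not called. The count higher in NEU rested on single libraries, with 11 without MON replicate 1, 8 without MON replicate 2, 2 without NEU replicate 1 and 3 without NEU replicate 2. A call was an adjusted p under 0.05 in edgeR's quasi-likelihood test with Benjamini-Hochberg adjustment over all 14309 genes. The median log2 fold change of MON over NEU was 0.37 for the members, -0.06 for all genes tested and -0.02 for the 11903 protein-coding genes tested. Changes were mostly modest: 9 called members were at least 2-fold higher in MON (12.2% of all genes tested were) and 0 were at least 2-fold higher in NEU (14.0% of all genes tested were). Both MON libraries lay above both NEU libraries for 30 members (56.6%, against 35.1% of all genes tested), the reverse held for 10 (18.9%, against 40.0% of all genes tested), and the groups overlapped for 13. Among the protein-coding genes tested the 2 shares were 37.7% and 39.4%. Together the members took 1.32% and 1.24% of the gene counts in MON, against 1.01% and 0.973% in NEU.

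**Figure D1:**
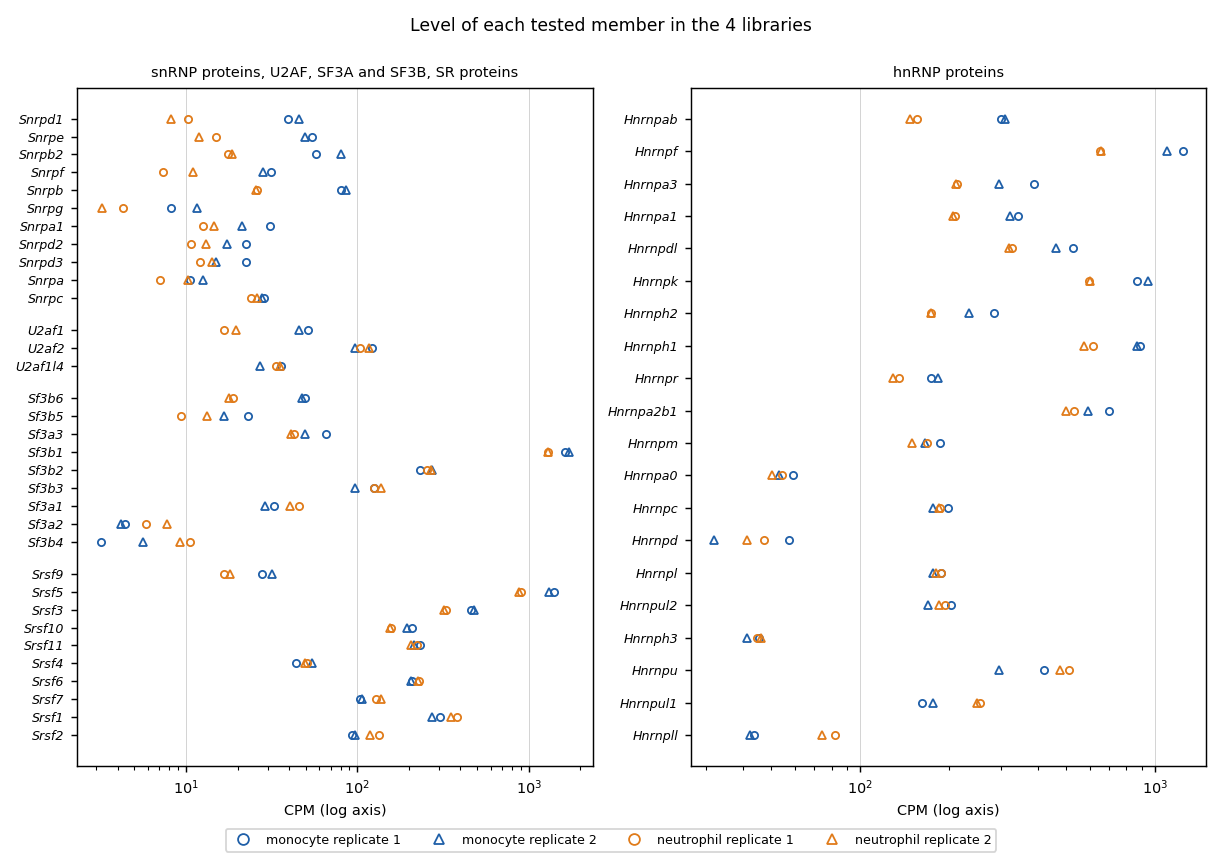
Each point is the level of 1 of the 53 tested members in 1 library, in CPM on a log axis, with MON in blue and NEU in orange, and genes ordered by fold change within families. The snRNP proteins sit at about 3 to 86 CPM with every MON point to the right of every NEU point of the same gene, whereas Sf3b1 and Srsf5 lie at 883.0 CPM or more in all 4 libraries.

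The families differed in how one-sided they were. Of all genes tested, 20.8% were called higher in MON and 21.8% in NEU. The Snrp genes had the highest median log2 fold change, 1.39, with 8 of 11 tested members called higher in MON (72.7%) and 0 in NEU. Of the 20 Hnrnp genes, 10 were called higher in MON (50%) and 2 in NEU (10%), with a median of 0.24. The 10 tested Srsf genes were divided between 4 higher in MON (40%) and 3 higher in NEU (30%), with a median of 0.01. Among the 9 Sf3 genes, 2 were called higher in MON (22.2%) and 1 in NEU (11.1%), with a median of -0.05. Among the 3 U2af genes 1 was called higher in MON (33.3%) and 0 in NEU, with a median of -0.01. Outside the Snrp family the median over the 42 tested members was 0.08, with 17 called higher in MON (40.5%) and 6 in NEU (14.3%).

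**Figure D2:**
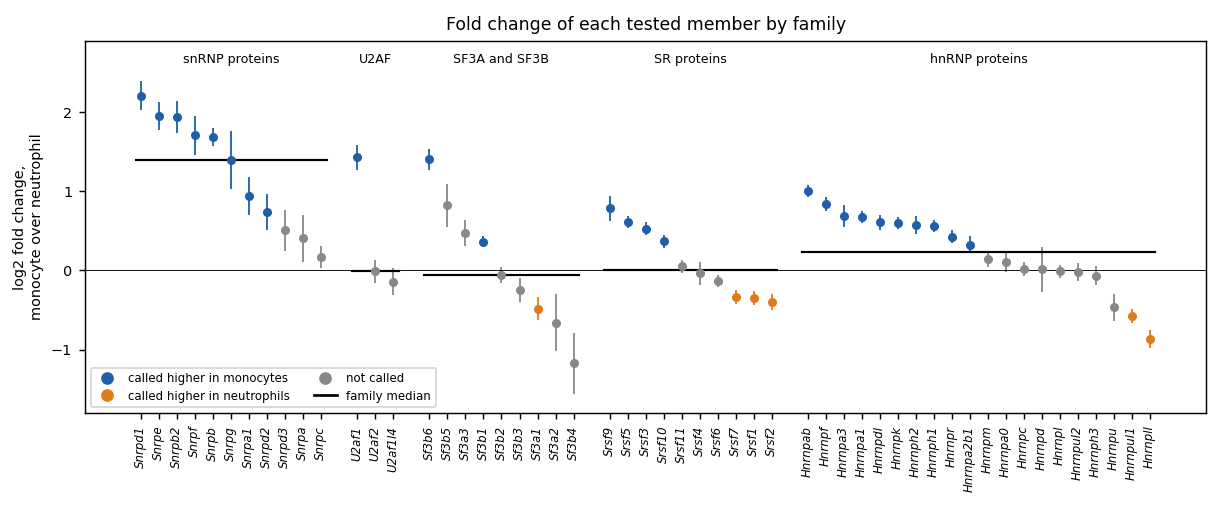
Points give the log2 fold change of MON over NEU for each tested member, bars its standard error, colours the edgeR call, and black lines the family median. The Snrp genes run between 0.17 and 2.21 with a median of 1.39, and the other families spread to both sides of 0.

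The snRNP proteins were led by the Sm ring, the 7 proteins that encircle the U1, U2, U4 and U5 small nuclear RNAs. Snrpd1, which encodes the ring protein SmD1, had 39.5 and 45.6 CPM in MON, against 10.2 and 8.19 CPM in NEU. The lowest MON library lay more than 3-fold above the highest NEU library. The log2 fold change was 2.21 ± 0.19 (SE), with an adjusted p of 0.00054 in edgeR. Snrpd1 lies at chr18:10617775-10642079 (mm10, plus strand). Snrpe, another ring protein (chr1:133603871-133610291, minus strand), had 54.6 and 49.6 CPM in MON, against 15.0 and 11.9 CPM in NEU. Its log2 fold change was 1.95 ± 0.17 (adjusted p 0.00063, edgeR), and the groups were well apart. A processed pseudogene of the same symbol stem, Snrpert, held 182 and 109 counts in MON, against 51 and 56 in NEU, beside 1428 and 1262 counts on Snrpe in MON and 327 and 243 in NEU.

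Snrpf, a ring protein (chr10:93583029-93589706, minus strand), had 31.6 and 28.2 CPM in MON, against 7.32 and 11.0 CPM in NEU, with no overlap (log2 fold change 1.70 ± 0.25, adjusted p 0.00358). Snrpb, which encodes SmB (chr2:130171414-130179403, minus strand), had 80.3 and 85.7 CPM in MON, against 25.9 and 25.6 CPM in NEU. By count it was the highest ring gene, with the smallest standard error of the ring, and its log2 fold change was 1.69 ± 0.11 (adjusted p 0.000265, edgeR). Snrpg had 8.15 and 11.6 CPM in MON, against 4.28 and 3.24 CPM in NEU (1.39 ± 0.36, adjusted p 0.027). Snrpd2 had 22.3 and 17.4 CPM in MON, against 10.6 and 13.1 CPM in NEU (0.74 ± 0.23, adjusted p 0.0464). The MON levels of both genes were above the NEU levels, but both calls ended when either NEU library was left out, at 1.596 and 1.18 for Snrpg and 0.58 and 0.87 for Snrpd2 without NEU replicates 1 and 2. Snrpd3 was the 1 tested ring gene without a call, at 22.3 and 14.9 CPM in MON against 12.0 and 14.1 CPM in NEU (0.51 ± 0.26, adjusted p 0.172), and it was called without MON replicate 2 (0.75, adjusted p 0.00452). The 8 ring genes summed to 258.8 and 253.0 CPM in MON, against 85.4 and 87.2 CPM in NEU, a ratio of 2.96. The eighth, Snrpn, an imprinted SmB relative used mainly in brain, had 0 and 0 counts in MON and 0 and 1 in NEU, and did not pass the filter.

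Among the Snrp genes, the 2 that encode U2-specific proteins moved with the ring, and the 2 that encode U1-specific proteins did not pass the test. Other proteins of these particles lie outside the Snrp symbols and did not follow them as a set. The SF3A and SF3B genes had a median log2 fold change of -0.05. Snrnp70, the U1 70K protein, was called higher in NEU (-0.36), a call that ended when either NEU library was left out. Snrpb2, the U2 B″ protein (chr2:143063039-143072853, plus strand), had 57.3 and 80.9 CPM in MON, against 17.6 and 18.5 CPM in NEU. Both MON libraries were over 3 times the NEU ones, although MON replicate 2 was well above replicate 1 (log2 fold change 1.94 ± 0.20, adjusted p 0.00104, edgeR). Snrpa1, its U2 A′ partner, had 31.0 and 21.1 CPM in MON, against 12.5 and 14.7 CPM in NEU (0.94 ± 0.24, adjusted p 0.0264), without overlap. That call ended when NEU replicate 1 was left out (0.81, adjusted p 0.12). Snrpa, the U1 A protein, had 10.5 and 12.6 CPM in MON, against 7.09 and 10.3 CPM in NEU (0.41 ± 0.30, adjusted p 0.321), and Snrpc, the U1 C protein, had 28.6 and 27.6 CPM in MON, against 24.1 and 26.0 CPM in NEU (0.17 ± 0.14, adjusted p 0.394). Their MON values were the higher ones in both cases, and neither passed the test. The 2 U2 genes summed to 88.2 and 102.0 CPM in MON, against 30.1 and 33.2 CPM in NEU, a ratio of 3.01, while the 2 U1 genes had a ratio of 1.18.

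**Figure D3:**
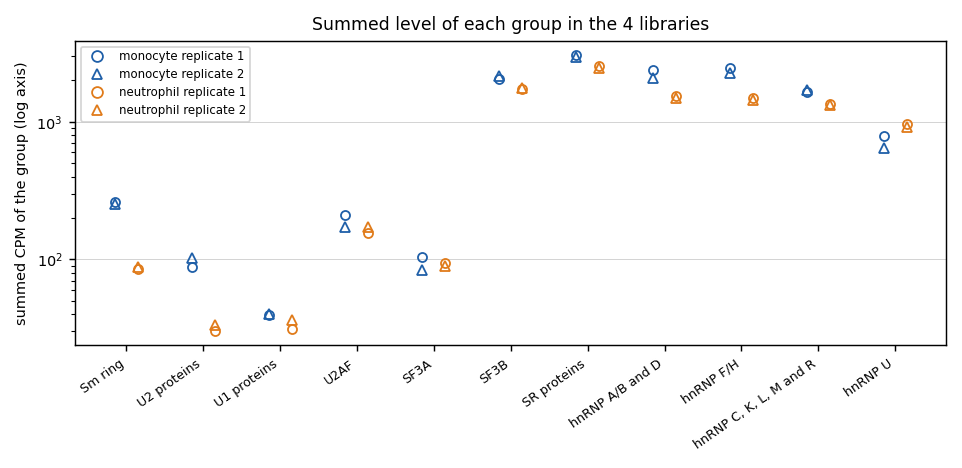
Each point is the summed CPM of a group of members in 1 library, on a log axis, with MON in blue on the left and NEU in orange on the right of each position. The Sm ring and the U2 proteins Snrpb2 and Snrpa1 are about 3 times higher in MON. The hnRNP U group is higher in NEU, and SF3A shows overlapping groups.

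Since the Snrp genes moved together, their promoters are printed to show what sequence they start from. RefSeq windows from 250 bases before to 50 after the start of transcription (GRCm38.p6, the mm10 assembly) were found for 48 of the 55 members. The windows shown are those of 3 snRNP genes among the 4 with the largest fold change, and of Hnrnpul1, a gene higher in NEU. Capitals mark matches on either strand to any of 8 short motifs: CCGGAAGT (ETS), GCATGCGC (NRF1 core), AAGATGG (YY1 core), TGACGTCA (CRE), CACGTG (E-box), the CCAAT box with its own letters, GGGCGG as the GC box, and TATAAA as the TATA box. No motif contains another.
Snrpe (chr1:133610231-133610530, minus strand): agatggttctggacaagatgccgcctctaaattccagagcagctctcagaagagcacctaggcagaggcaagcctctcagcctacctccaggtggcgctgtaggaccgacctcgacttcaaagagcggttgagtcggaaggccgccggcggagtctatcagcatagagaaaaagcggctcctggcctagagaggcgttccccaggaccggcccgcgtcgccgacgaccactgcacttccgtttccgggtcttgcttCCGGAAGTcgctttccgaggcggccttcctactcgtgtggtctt
Snrpb2 (chr2:143062819-143063118, plus strand): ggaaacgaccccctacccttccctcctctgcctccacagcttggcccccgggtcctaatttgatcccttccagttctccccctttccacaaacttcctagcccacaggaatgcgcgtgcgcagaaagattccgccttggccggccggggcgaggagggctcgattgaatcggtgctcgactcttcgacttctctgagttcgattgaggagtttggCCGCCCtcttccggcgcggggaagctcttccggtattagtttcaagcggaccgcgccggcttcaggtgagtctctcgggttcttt
Snrpf (chr10:93589609-93589908, minus strand): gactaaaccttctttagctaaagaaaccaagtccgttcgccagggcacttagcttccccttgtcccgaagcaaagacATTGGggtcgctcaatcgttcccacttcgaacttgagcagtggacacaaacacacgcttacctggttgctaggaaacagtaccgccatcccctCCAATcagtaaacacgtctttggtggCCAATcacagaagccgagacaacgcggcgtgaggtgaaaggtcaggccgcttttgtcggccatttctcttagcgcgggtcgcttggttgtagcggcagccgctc
Hnrnpul1 (chr7:25754710-25755009, minus strand): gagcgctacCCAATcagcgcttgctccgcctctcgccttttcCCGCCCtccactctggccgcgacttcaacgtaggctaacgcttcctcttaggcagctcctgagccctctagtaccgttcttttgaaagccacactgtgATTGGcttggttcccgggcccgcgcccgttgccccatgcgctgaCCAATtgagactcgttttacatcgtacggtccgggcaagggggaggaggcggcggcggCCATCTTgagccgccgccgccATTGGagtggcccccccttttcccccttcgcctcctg
Snrpe held 1 ETS match that began 7 bases into the transcript, and Snrpb2 1 GC box at -35. Snrpf held 3 CCAAT boxes at -173, -80 and -54, so these 3 printed windows shared none of the motifs searched. Of the 10 Snrp genes with a window, 5 had a GC box, 4 a CCAAT box, 2 a CRE and 2 a TATA box. An E-box was found in 1 of them, an ETS match in 1, and an NRF1 or YY1 core in 0. Hnrnpul1 held CCAAT boxes at -241, -110, -66 and 14, a GC box at -208 and a YY1 core at -8. Over all 66 member windows, the GC box was found in 68.2%, against 35.7% of the 32851 windows of all genes, and the ETS motif in 16.7%, against 3.89% of all windows. The CCAAT box was found in 45.5% of member windows, against 37.4% of all windows, and the TATA box in 10.6%, against 13.6%. By call, 3 of the 23 members with a window that were higher in MON had an ETS match, as did 1 of the 5 higher in NEU and 5 of the 18 not called. The CCAAT box was present in 14 of 23 higher in MON, 3 of 5 higher in NEU and 6 of 18 not called, and the YY1 core in 0 of 23, 2 of 5 and 0 of 18. These are matches of letters only, and a window without one says only that those letters are not in it.

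U2AF, the heterodimer that reads the end of the intron, was split between its subunits. U2af1, the small subunit that contacts the AG at the splice site (chr17:31647081-31658892, minus strand), had 51.4 and 45.8 CPM in MON, against 16.7 and 19.5 CPM in NEU. The groups were far apart, with a log2 fold change of 1.43 ± 0.15 (adjusted p 0.00126, edgeR). U2af2, the large subunit that binds the polypyrimidine tract (chr7:5062143-5079938, plus strand), had 122.6 and 97.4 CPM in MON, against 104.3 and 117.4 CPM in NEU. These groups overlapped and the log2 fold change was -0.01 ± 0.14 (adjusted p 0.957). Per kilobase of transcript, the mean levels were 65.5 for U2af1 and 57.7 for U2af2 in MON, against 24.3 for U2af1 and 58.2 for U2af2 in NEU. U2af1l4, a relative of the small subunit, had 35.6 and 27.1 CPM in MON, against 33.6 and 35.6 CPM in NEU (-0.14 ± 0.17, adjusted p 0.566). It was called lower in MON without MON replicate 1 (-0.37). With effective transcript length as an offset, the median of the U2af family was 0.50, against -0.01 without it.

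SF3A and SF3B form the branch-point part of the U2 snRNP. Of their 9 member genes, 2 were called higher in MON (22.2%, against 20.8% of all genes tested) and 1 in NEU (11.1%, against 21.8%). Sf3b1, the large scaffold of SF3B (chr1:54985169-55027481, minus strand), was the most abundant member of any family by count, with 1632 and 1723 CPM in MON, against 1302 and 1303 CPM in NEU. The difference was small but clear of the replicate spread (log2 fold change 0.36 ± 0.07, adjusted p 0.0114, edgeR), and the call ended without NEU replicate 2 (0.34, adjusted p 0.0555). Sf3b6, the small p14 subunit that lies at the branch adenosine (chr12:4817544-4827659, plus strand), had 49.2 and 47.8 CPM in MON, against 18.9 and 17.8 CPM in NEU. Its replicates nearly coincided and its log2 fold change was 1.40 ± 0.13 (adjusted p 0.00078). Sf3b2, the next most abundant subunit per kilobase, had 233.7 and 271.3 CPM in MON, against 254.4 and 269.7 CPM in NEU, which overlapped (-0.05 ± 0.10, adjusted p 0.712).

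Sf3a1, a subunit that links SF3A to the U2 snRNP (chr11:4160350-4182541, plus strand), was the 1 Sf3 gene called higher in NEU, with 32.9 and 29.1 CPM in MON, against 45.9 and 40.6 CPM in NEU. The groups did not overlap (log2 fold change -0.48 ± 0.14, adjusted p 0.0417), but the call ended without NEU replicate 1 (-0.40, adjusted p 0.353) or NEU replicate 2 (-0.59, adjusted p 0.135). Sf3b4 had 3.17 and 5.62 CPM in MON, against 10.6 and 9.21 CPM in NEU, and its log2 fold change of -1.17 ± 0.39 had an adjusted p of 0.0571. It shares 85 exon bases with Gm17690, an antisense transcript on the opposite strand that held 93 and 55 counts in MON, against 295 and 218 in NEU. Sf3b5, a small subunit, had 22.9 and 16.8 CPM in MON, against 9.29 and 13.2 CPM in NEU (0.82 ± 0.27, adjusted p 0.0584). Without MON replicate 2, Sf3b4 gave -1.66 (adjusted p 0.0007), and without MON replicate 1 -0.83 (adjusted p 0.0229). Sf3b5 gave 1.01 without MON replicate 2 (adjusted p 0.00213). Both genes were called by DESeq2, Sf3b4 as higher in NEU (adjusted p 0.0407) and Sf3b5 as higher in MON (adjusted p 0.0437), so their calls depend on the tool and on the library. The other subunits gave 0.47 for Sf3a3, -0.25 for Sf3b3 and -0.66 for Sf3a2 on the log2 scale, none of them called. Sf3a3 was called without MON replicate 2 (0.64, adjusted p 0.000912) and Sf3b3 without MON replicate 1 (-0.46, adjusted p 0.0039).

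SR proteins went both ways. Srsf5, the family's most abundant gene (chr12:80945504-80950507, plus strand), had 1408 and 1311 CPM in MON, against 901.4 and 883.0 CPM in NEU. Both MON libraries lay above both NEU libraries (log2 fold change 0.61 ± 0.08, adjusted p 0.00217, edgeR). Srsf3, the smallest SR protein, which also acts in RNA export (chr17:29032628-29043373, plus strand), had 458.1 and 478.3 CPM in MON, against 329.9 and 318.6 CPM in NEU (0.53 ± 0.08, adjusted p 0.0036). Srsf9 had 27.7 and 31.9 CPM in MON, against 16.6 and 18.04 CPM in NEU (0.79 ± 0.16, adjusted p 0.0127). Srsf10, which represses splicing in its dephosphorylated form, had 208.6 and 196.2 CPM in MON, against 158.1 and 155.0 CPM in NEU (0.37 ± 0.08, adjusted p 0.0161). All 4 were free of overlap, and the calls of Srsf9 (0.71 and 0.82) and Srsf10 (0.37 and 0.33) ended without NEU replicate 1 and without NEU replicate 2. Both calls also ended with effective transcript length as an offset (0.75 and 0.43).

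A further 3 SR genes were called higher in NEU. Srsf2, also called SC35 (chr11:116849901-116853094, minus strand), had 93.5 and 97.3 CPM in MON, against 133.5 and 118.7 CPM in NEU (-0.40 ± 0.10, adjusted p 0.0241). Its exons overlap those of Mettl23 by 460 bases and of Mfsd11 by 288 bases, both on the opposite strand. Srsf1, the founding SR protein (chr11:88047373-88053755, plus strand), had 302.5 and 273.4 CPM in MON, against 381.2 and 350.6 CPM in NEU (-0.35 ± 0.09, adjusted p 0.0298). Srsf7, a close relative of Srsf3 (chr17:80200080-80207307, minus strand), had 104.0 and 106.4 CPM in MON, against 128.0 and 137.9 CPM in NEU (-0.34 ± 0.09, adjusted p 0.0294). In each case both NEU libraries were above both MON libraries, and in each case the call ended when either NEU library was left out. Without NEU replicates 1 and 2, the values were -0.33 and -0.51 for Srsf2, -0.30 and -0.43 for Srsf1, and -0.41 and -0.31 for Srsf7. Srsf6 had 208.8 and 207.1 CPM in MON, against 228.6 and 226.5 CPM in NEU (-0.13 ± 0.07, adjusted p 0.218), while Srsf4 and Srsf11 had log2 fold changes of -0.04 and 0.05. Srsf12 had 0 and 0 counts in MON and 0 and 3 in NEU, and did not pass the filter. Srsf3 and Srsf7, near relatives, were thus called in opposite directions.

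Among the hnRNPs, the A/B and D group and the F/H group were mostly higher in MON. Hnrnpab, an A/B-type protein (chr11:51600100-51606847, minus strand), had 299.4 and 309.3 CPM in MON, against 156.3 and 147.4 CPM in NEU. It was the 1 hnRNP gene called with a fold of at least 2 (log2 fold change 1.003 ± 0.08, adjusted p 0.000455, edgeR). Its exons overlap 809 bases of Phykpl on the opposite strand, which held 409 and 358 counts in MON and 378 and 409 in NEU, against 7828 and 7872 counts on Hnrnpab in MON and 3398 and 3008 in NEU. Hnrnpa3 (chr2:75659261-75669407, plus strand) had 387.8 and 296.1 CPM in MON, against 213.9 and 211.4 CPM in NEU (0.69 ± 0.14, adjusted p 0.0121). Hnrnpa1, an abundant antagonist of SR proteins at exons (chr15:103240432-103246692, plus strand), had 342.7 and 321.9 CPM in MON, against 209.2 and 207.1 CPM in NEU (0.67 ± 0.08, adjusted p 0.00166). These were all cases with no overlap of groups. Hnrnpdl (0.61, adjusted p 0.00438) and Hnrnpa2b1 (0.33, adjusted p 0.0481) were also called higher in MON. The call of Hnrnpa2b1 ended without MON replicate 1 (0.19), NEU replicate 1 (0.35) or NEU replicate 2 (0.26) and under 3 of the other scalings. With limma on log2(TPM + 1), the calls of Hnrnpa2b1 (0.515), Hnrnpa3 (0.73) and Hnrnpdl (0.51) ended, as they did on log2(TPM + 0.1). Hnrnpa0, at 0.11, and Hnrnpd, at 0.01, were not called. Hnrnpd, the AU-rich element binding protein AUF1, had 57.4 and 32.1 CPM in MON, so its MON libraries lay on either side of the 47.2 and 41.4 CPM in NEU. It was called lower in MON without MON replicate 1 (-0.48, adjusted p 0.0131) and higher without MON replicate 2 (0.36, adjusted p 0.0388).

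Hnrnpf, which binds G-rich RNA (chr6:117900324-117925622, plus strand), had 1244 and 1102 CPM in MON, against 653.2 and 657.5 CPM in NEU. It was the most abundant hnRNP gene by count and the groups were well apart (log2 fold change 0.84 ± 0.09, adjusted p 0.00112, edgeR). Its relatives Hnrnph1, with 888.3 and 871.9 CPM in MON against 616.8 and 575.6 CPM in NEU (0.56, adjusted p 0.00298), and the X-linked Hnrnph2 (0.58, adjusted p 0.0108) were also higher in MON, whereas Hnrnph3 was not called (-0.06). The calls of Hnrnph1 (0.29) and Hnrnph2 (0.49) ended with limma on log2(TPM + 1), and also on log2(TPM + 0.1). The Hnrnph1 call ended with effective transcript length as an offset (0.26, adjusted p 0.108), as did those of Snrpa1, Snrpd2, Srsf1, Srsf7, Srsf9 and Srsf10. Under that offset 20 members were called higher in MON and 6 in NEU. Of those 6, 4 were also called without the offset, while Hnrnpu (-0.39) and Sf3b4 (-1.46) were called only with it. Hnrnpk, which binds C-rich RNA and DNA (chr13:58391142-58403343, minus strand), had 869.3 and 947.1 CPM in MON, against 598.4 and 602.0 CPM in NEU (0.60 ± 0.08, adjusted p 0.0027). Per kilobase it was the highest hnRNP gene, at 745 in MON against 493 in NEU. Hnrnpr was also called higher in MON (0.43, adjusted p 0.0118), a call that ended without NEU replicate 1 (0.45) or NEU replicate 2 (0.37), and Hnrnpc, Hnrnpl and Hnrnpm lay between -0.01 and 0.15 and were not called.

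The 2 hnRNP genes higher in NEU were Hnrnpll and Hnrnpul1. Hnrnpll, the hnRNP L relative known for Cd45 exon skipping in lymphocytes (chr17:80029487-80062334, minus strand), had 43.6 and 42.5 CPM in MON, against 82.1 and 74.2 CPM in NEU. The NEU libraries were both clearly above (log2 fold change -0.86 ± 0.11, adjusted p 0.00255, edgeR). B cell markers, whose sums were 918.6 to 1084 CPM in MON against 6603 to 6764 CPM in NEU, moved the same way. Of the 15 T cell markers tested, 8 were called higher in NEU and 4 in MON. The part of B and T cells in the Hnrnpll difference was not tested. Hnrnpul1, an hnRNP U relative (chr7:25721165-25754757, minus strand), had 162.2 and 176.9 CPM in MON, against 254.7 and 249.8 CPM in NEU (-0.57 ± 0.08, adjusted p 0.00377). Hnrnpu itself, a nuclear matrix protein also known as SAF-A, had 420.1 and 296.9 CPM in MON, against 512.0 and 476.3 CPM in NEU. Both NEU values were above both MON values, but the MON replicates differed and the adjusted p was 0.0771 (-0.46 ± 0.17); DESeq2 gave an adjusted p of 0.00772. Hnrnpu was called lower in MON without MON replicate 1 (-0.75), MON replicate 2 (-0.25) or NEU replicate 2 (-0.54). Hnrnpul2 had a log2 fold change of -0.02. The hnRNP U group summed to 785.9 and 643.5 CPM in MON, against 960.6 and 910.8 CPM in NEU, a ratio of 0.764, while the other 17 hnRNP genes had a ratio of 1.45.

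Levels between genes were compared per kilobase of effective transcript length. In both groups the highest member was Srsf5 among the SR genes, at 931 CPM per kilobase in MON against 611 in NEU, Hnrnpk among the hnRNPs, as above, Sf3b1 in the Sf3 family, at 418 in MON against 324 in NEU, and Snrpe in the Snrp family, at 149 in MON against 38.6 in NEU. In the U2af family U2af1 was highest in MON and U2af2 in NEU. By the mean of both groups, the next were Hnrnpf at 663 in MON against 370 in NEU, Srsf3 at 226 in MON against 157 in NEU, Snrpb at 83.8 in MON against 26.0 in NEU, and Sf3b2 at 82.4 in MON against 85.5 in NEU. In NEU alone, Hnrnph1 at 378 stood above Hnrnpf, and Snrpd2 at 26.5 and Snrpc at 26.3 above Snrpb. The snRNP proteins were thus lower in level than the leading SR and hnRNP genes in both cell types, even per length. Shorter members leaned towards MON. Spearman's rho between the signed log2 fold change of MON over NEU and effective length was -0.518 over the 53 tested members. Over the 11903 protein-coding genes tested it was -0.149. Genes are not independent replicates and all points share the same 4 libraries, so these are descriptions.

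The share of isoforms within a member was read from the RSEM transcript length, which averages a gene's annotated transcripts by their estimated shares and was not used to choose members. Of 41 members with more than 1 length, 0 were called longer in MON (0.215% of the 8827 genes tested were) and 0 were called longer in NEU (0.374% were) by limma with Benjamini-Hochberg adjustment. At an unadjusted p under 0.05 there were 8 members, against 1189 of all 8827 genes (13.5%). The median absolute log2 difference was 0.06 for members and 0.11 for all genes tested. The largest was U2af1l4, with 38 annotated transcripts and a mean length of 890.5 and 743.7 bases in MON, against 1166 and 1180 bases in NEU (log2 difference -0.53 ± 0.11, adjusted p 0.286, limma). Srsf3 averaged 2079 and 1937 bases in MON, against 2455 and 2479 bases in NEU (-0.30 ± 0.05, adjusted p 0.235). Its MON values were both the shorter. Hnrnph1 averaged 1832 and 1993 bases in MON, against 1561 and 1590 bases in NEU (0.28 ± 0.06, adjusted p 0.277), and Srsf2 averaged 1852 and 1857 bases in MON, against 1685 and 1569 bases in NEU (0.19 ± 0.05, adjusted p 0.324). SR genes are known to carry exons that bring a premature stop, but these gene tables do not show which isoform a length belongs to. None of these differences passed the adjusted test, and 11 members have only 1 annotated transcript.

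**Figure D4:**
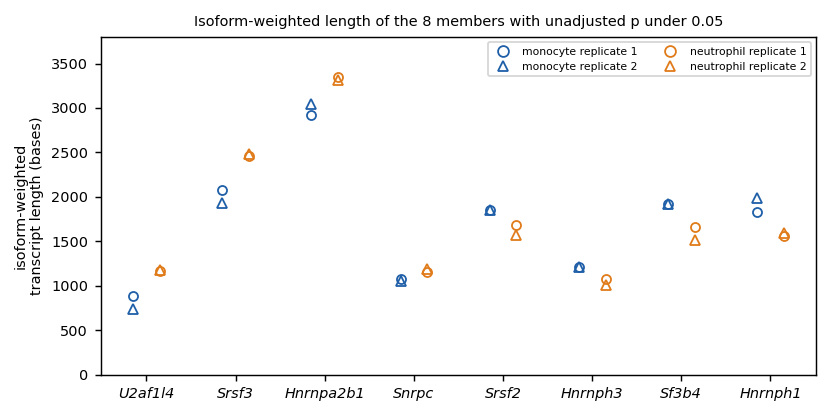
Each point is the isoform-weighted transcript length of a member in 1 library, in bases, for the 8 members with an unadjusted limma p under 0.05, with MON in blue on the left and NEU in orange on the right. The groups do not overlap for any of the 8, as with 2079 and 1937 bases in MON against 2455 and 2479 bases in NEU for Srsf3, but 0 of the 8 passed the adjusted test.

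Splicing genes outside the member symbols were counted in 8 lists, each to be read against the 20.8% of all genes tested that were called higher in MON, the 21.8% called higher in NEU and their median of -0.06. Of 28 tested proteins of the U1, U2, U4/U6, U5 and minor snRNPs, 9 were called higher in MON (32.1%) and 3 in NEU (10.7%). Their median log2 fold change was 0.25. The most abundant, Snrnp200, the U5 helicase, was not called (-0.21, adjusted p 0.0767). Ppih (1.43), Dnajc8 (1.003) and Smndc1 (0.85) were the highest in MON, and Cherp (-0.77), Prpf3 (-0.51) and Snrnp70 (-0.36), the U1 70K protein, the highest in NEU. Of 11 genes on the Lsm list, 4 were called higher in MON (36.4%) and 0 in NEU, with a median of 0.77, the nearest to the Sm genes. Most encode proteins of the rings of the U6 snRNA and of RNA decay complexes, but Lsm10, Lsm11 and Naa38 do not. Lsm5 (1.58), Lsm3 (1.44) and Naa38 (1.10), which has an Lsm fold, led the called genes, and Lsm6, the most abundant, was not called (0.15). The median was the value of Lsm1, which was not called. Lsm7 had the highest value (2.46 ± 1.40) without a call, with 10 and 255 counts in MON against 27 and 13 in NEU. Of 43 factors of spliceosome activation and catalysis, 17 were called higher in MON (39.5%) and 3 in NEU (6.98%), with a median of 0.24. Cwc15 (1.31), Isy1 (1.16), Smu1 (1.04) and the most abundant, Syf2 (0.91), were higher in MON, and the helicases Ddx39b (-0.62) and Ddx46 (-0.47) and Wbp11 (-0.44) higher in NEU. Leaving out NEU replicate 1 ended the calls of Cherp (-0.87), Prpf3 (-0.57), Snrnp70 (-0.46), Naa38 (1.27), Ddx46 (-0.44) and Wbp11 (-0.38), and leaving out NEU replicate 2 those of Cherp (-0.72), Prpf3 (-0.48), Snrnp70 (-0.30), Naa38 (0.91) and Wbp11 (-0.53). Snrnp200 was called without MON replicate 1 (-0.25).

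The enzymes that act on SR proteins and the SR-related proteins each had genes called in both directions. Of 14 SR protein kinases, phosphatases and import factors, 1 was called higher in MON (7.14%) and 5 in NEU (35.7%), with a median of -0.10. Srpk3, an SR protein kinase, had 8.11 and 12.3 CPM in MON, against 63.7 and 70.7 CPM in NEU (-2.72 ± 0.23, adjusted p 0.00054, edgeR). That difference was larger than that of any member. The kinases Srpk2 (-1.32) and Hipk1 (-0.86) were also higher in NEU, Clk4 (0.33) was higher in MON, and the abundant Clk1 was not called (0.23). Of 27 SR-related proteins, 6 were called higher in MON (22.2%) and 12 in NEU (44.4%), with a median of -0.35. Tra2b, a sequence-specific SR-like activator, had 440.9 and 421.7 CPM in MON, against 202.8 and 190.7 CPM in NEU (1.13 ± 0.08, adjusted p 0.000324). The nuclear speckle scaffold Srrm2 had 315.7 and 292.6 CPM in MON, against 656.1 and 634.0 CPM in NEU (-1.08 ± 0.08, adjusted p 0.000363). The cyclins Ccnl1 (0.70) and Ccnl2 (-0.63) went opposite ways, Zranb2 (0.64) and the abundant Rbm39 (0.42) were higher in MON, and Scaf1 (-0.88) was higher in NEU. The call of Clk4 ended without NEU replicate 1 (0.39) or NEU replicate 2 (0.24), that of Scaf1 ended without NEU replicate 2 (-0.80), and Clk1 was called without MON replicate 2 (0.27).

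Of 41 tested splicing regulators of other families, 9 were called higher in MON (21.95%) and 11 in NEU (26.8%), with a median of 0.02, shares close to those of all genes tested. Rbm3, the cold-inducible RNA-binding protein (1.55), Fubp3 (1.14) and Raly (1.001), an hnRNP C relative, were higher in MON, and Rbm14 (-1.22), Tia1 (-1.06) and Celf1 (-0.86) higher in NEU, while the abundant Ptbp3 was not called (0.26). Without NEU replicate 1 the calls of Rbm14 (-1.14) and Fubp3 (0.78) ended, and Ptbp3 was called without MON replicate 1 (0.35). Of 19 genes of the exon junction complex and nonsense-mediated decay, 7 were called higher in MON (36.8%) and 6 in NEU (31.6%), with a median of -0.33. Magohb (1.70), Alyref (1.23) and Magoh (1.16) were higher in MON, and Casc3 (-1.25), Upf2 (-1.15) and Smg1 (-1.02) higher in NEU. Magohb gave 2.41 without NEU replicate 1 and 1.19 without NEU replicate 2, and leaving out the latter ended its call. With effective length as an offset the calls of Magohb (1.705), Alyref (0.66) and Casc3 (-0.11) ended. In the other lists that offset also ended the calls of Fubp3 (0.99), Wbp11 (-0.63), Cherp (-0.77), Naa38 (1.17) and Snrnp70 (-0.36). Of 5 nuclear noncoding RNAs tested, 0 were called higher in MON and 3 in NEU (60.0%), namely Malat1 (-0.41), Kcnq1ot1 (-1.84) and Neat1 (-0.78), with a median of -0.41. With effective length as an offset Neat1 gave -0.12 and was not called.

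**Figure D5:**
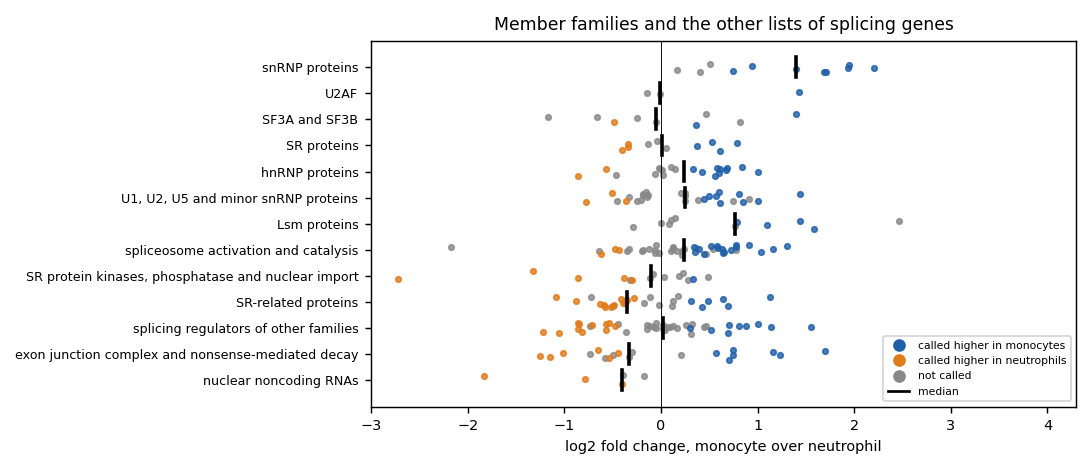
Points give the log2 fold change of MON over NEU for each tested gene of the 5 member families and of the 8 other lists, coloured by edgeR call, with the median as a black bar. The snRNP proteins, at a median of 1.39, and the Lsm proteins, at 0.77, lie farthest to the right, and the SR-related proteins, at -0.35, and the nuclear noncoding RNAs, at -0.41, farthest to the left.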

How the data were processed

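The deposited tables give, for each library, expected counts that the authors estimated per gene with RSEM after aligning the reads to mm10 with STAR, with reads of several genes shared among them. The TPM values in the deposited files were made by the authors' RSEM run, and entered only as an alternative. Lengths, posterior mean counts and posterior standard deviations came from the same run. The strand setting was not given in the sources used here. Libraries were made from rRNA-depleted total RNA without molecular identifiers. Expected counts were rounded, scaled by TMM, filtered with filterByExpr and tested over 14309 genes in edgeR 4.0.16 (R 4.3.3). The standard error was taken from the log2 fold change and its F statistic. DESeq2 1.42.0 and limma 3.58.1, which also tested transcript lengths, gave alternatives. Lengths were tested on the log2 scale for 8827 genes. Scripts were tested on simulated data. Names came from GENCODE M21 for 42462 of 43346 entries (98.0%). In every tested member the posterior coefficient of variation of the count was at most 7.5%, and 24 members share exon bases with another annotated gene, so their counts are less certain.

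Per-library values were given for the 2 members of each family highest per kilobase, up to 4 called members per family and direction with the largest fold, and members that failed the filter, and others were added after their values were seen. For the other lists, the gene highest in CPM and up to 3 called genes per direction with the largest fold and at least 5 CPM were named. Members and lists were chosen with earlier results of these data known. With 2 against 2 libraries the smallest two-sided exact permutation p is 0.333, so sums and medians carry no test. The result of 1 marker list is not reported here.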

Additional observations from a re-analysis of the deposited data

Results flagged for a closer look

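Processed pseudogenes that match the member symbols were left out of the comparison, but 2 of them held reads above the 3 counts that a count of 0 allows. Snrpert, a processed pseudogene (chr2:131322088-131322366, mm10), held 398 counts over the 4 libraries, 182 and 109 in MON and 51 and 56 in NEU. Its log2 fold change was 1.14 ± 0.47, with an adjusted p of 0.105 in edgeR. Hnrnpa1l2-ps (chr13:74864305-74865356) held 48 counts over the 4 libraries, 0 and 7 in MON and 15 and 26 in NEU, with a posterior coefficient of variation of up to 633%, so its reads could not be assigned with any certainty.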

How the results depend on the processing

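Of the 53 tested members, 29 had the same call under every alternative and 24 changed under some. The largest median shift of all genes between scalings was -0.043 on the log2 scale, under upper-quartile factors. Leaving out 1 library moved the count of members higher in NEU between 2 and 11 (11 without MON replicate 1, 8 without MON replicate 2, 2 without NEU replicate 1, 3 without NEU replicate 2), and that of members higher in MON between 18 and 29. It moved the count of all genes tested higher in NEU between 1810 and 4675, the Snrp median between 1.17 and 1.60 and the Srsf median between -0.055 and 0.037. A lone library was assumed to vary like the other group. The cause was not tested. limma on log2(TPM + 1) gave 1801 for all genes tested higher in NEU, and called 18 and 4 members higher in MON and NEU, and on log2(TPM + 0.1) gave 1688, 17 and 4. The U2af median was 0.47, 0.52 and 0.50 under the 2 TPM settings and the effective length offset. The Snrp median was 1.15 with no filter, 1.30 with at least 10 CPM in 2 libraries and 1.28 with log2(TPM + 1), and the Srsf median -0.055 with no filter and -0.051 with the length offset. The Sf3 median was 0.35 with at least 10 CPM. Fewer or more genes pass under other filters. DESeq2 called 26 and 8 members, and the length offset 20 and 6. Hnrnpd reversed, at -0.48 without MON replicate 1 and 0.36 without MON replicate 2. No member was called for length under any alternative. No paired analysis was possible because the replicate numbers follow deposit order only. Counts limit Snrpn and Srsf12 most.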
